A study of Mus musculus with 6 samples.

Results

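The Bcl2 family of survival and death genes was examined in sorted mouse bone marrow cells, as 10 named genes: Bcl2, Mcl1 and Bcl2l1 on the survival side, Bax and Bak1 as effectors of death, and Bcl2l11 (Bim), Bbc3 (Puma), Pmaip1 (Noxa), Bid and Bad as their triggers. Members were all probe sets of the microarray whose platform annotation gives 1 of these symbols. By this rule 9 of the 10 genes had a probe set, among 18194 genes tested, and they held 29 of the 45101 probe sets. No probe set was matched to Bax, which was therefore not analysed here. The probe set with the highest mean log2 intensity over all arrays stood for its gene, and the others are given beside it by value or range.

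The arrays came from lineage-negative, cKit-positive, Sca1-positive (LSK) cells, the marrow fraction that holds blood stem cells and the first multipotent progenitors. All mice were 6 weeks old and of genotype Hes1 GFP/WT, that is, carrying 1 GFP reporter allele beside 1 wild-type allele of Hes1, which encodes a repressor induced by Notch signals, and both groups share this genotype. Cells positive for Hes1-GFP (3 arrays) were set against cells negative for it (3 arrays). In each group replicate 1 was female and replicates 2 and 3 were male. The labels do not say whether an array held 1 animal or a pool, nor whether same-numbered arrays of the 2 groups shared an animal. Values are log2 intensities, and a log2 difference is GFP-positive minus GFP-negative. Since a sorted sample is a mixture, fewer cells of a type and less RNA per cell cannot be told apart in any value below.

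Proteins of this family decide whether the outer mitochondrial membrane stays closed. Bax and Bak1 open it, which frees cytochrome c and starts the caspases. Bcl2, Mcl1 and the long product of Bcl2l1 hold Bax and Bak1 in check, and the BH3-only proteins, which share just 1 short helix with the rest, either block these guardians or act on Bax and Bak1 directly. Blood stem cells of the mouse are known to depend on Mcl1, and Bim is known for removing surplus lymphoid and myeloid cells. Much of this control acts on the proteins, through phosphorylation, cleavage and turnover, which an array of transcripts does not measure.

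Promoter sequence is shown for the 3 members with the smallest p-values and for Bbc3, since transcription of Bcl2l11 and Bbc3 is known to be driven by FOXO factors and Foxo3 is described with them below. The windows run from 250 bases before to 50 bases after a gene start, read on the gene's strand, from RefSeq on build GRCm38.p6. Windows of 9 of the 10 members were used, 15 windows in all. Pmaip1 was left out of them, while nothing was left out of the counts over all windows given below. Capitals mark matches, none of which overlap, on either strand to 3 short motifs: the extended FOXO core GTAAACA, the HES class C site CACGCG and the HES N-box CACNAG, to the last 2 of which proteins of the Hes1 family bind.
Bcl2l11, the first of its 2 windows, chr2:128125788-128126087, plus strand: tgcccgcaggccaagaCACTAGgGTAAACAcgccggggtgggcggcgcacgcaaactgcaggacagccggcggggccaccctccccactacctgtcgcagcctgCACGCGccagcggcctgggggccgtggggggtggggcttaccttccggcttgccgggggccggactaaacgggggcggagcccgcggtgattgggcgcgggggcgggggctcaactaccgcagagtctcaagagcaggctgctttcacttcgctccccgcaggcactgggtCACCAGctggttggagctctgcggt
Bbc3, the second of its 3 windows, chr7:16310011-16310310, plus strand: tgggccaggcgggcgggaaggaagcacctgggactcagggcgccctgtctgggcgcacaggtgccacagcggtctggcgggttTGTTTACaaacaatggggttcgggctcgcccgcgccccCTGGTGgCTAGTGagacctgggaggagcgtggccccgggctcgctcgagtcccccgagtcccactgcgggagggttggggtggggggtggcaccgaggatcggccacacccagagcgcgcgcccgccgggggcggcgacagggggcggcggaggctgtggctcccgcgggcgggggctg
Bcl2, chr1:106714241-106714540, minus strand: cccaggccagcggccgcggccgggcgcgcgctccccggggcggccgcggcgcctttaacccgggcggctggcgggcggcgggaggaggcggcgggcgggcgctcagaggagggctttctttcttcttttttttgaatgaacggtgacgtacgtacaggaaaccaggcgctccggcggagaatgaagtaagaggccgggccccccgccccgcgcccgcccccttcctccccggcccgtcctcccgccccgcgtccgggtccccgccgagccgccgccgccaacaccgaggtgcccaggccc
Bad, the first of its 2 windows, chr19:6941611-6941910, plus strand: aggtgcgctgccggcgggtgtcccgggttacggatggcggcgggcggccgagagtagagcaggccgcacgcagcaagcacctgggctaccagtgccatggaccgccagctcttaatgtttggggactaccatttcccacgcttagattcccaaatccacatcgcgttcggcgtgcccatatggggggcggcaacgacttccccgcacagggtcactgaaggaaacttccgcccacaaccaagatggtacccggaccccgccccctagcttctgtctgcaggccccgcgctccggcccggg
In the Bcl2l11 window a GTAAACA match begins 227 bases before the start, a CACGCG match 146 bases before it, and there are 2 CACNAG matches. The Bbc3 window holds 1 GTAAACA match on the opposite strand, 167 bases before the start, and 2 CACNAG matches. The Bcl2 and Bad windows shown hold none of the 3 motifs, and nothing follows from that about the factors. Among all 32851 promoter windows, 3.65% held GTAAACA, 9.27% held CACGCG and 42.5% held CACNAG. Among the 15 windows used for the family, without Pmaip1, 2 held GTAAACA, both shown, 4 held CACGCG and 6 held CACNAG. A match describes letters and is not a binding site shown in these cells.

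Hes1, the gene of the reporter, read 7.36, 7.09 and 7.84 in GFP-positive replicates 1, 2 and 3, against 6.78, 6.79 and 7.10 in the GFP-negative ones, with GFP-positive replicate 2 just below GFP-negative replicate 3 (limma adjusted p = 0.780). As guides to background, 3 Y-linked genes read at most 4.69 in the female arrays and Xist at most 5.59 in the male arrays. Kit, a marker of the gate, lay between 9.69 and 10.51 in GFP-positive arrays and between 10.47 and 10.72 in GFP-negative ones. Ly6a, the Sca1 gene, was not analysed here. Of 5 lineage markers measured, Cd3e and Cd3g stayed at or near the guides, while Cd4 lay between 8.23 and 8.87 in GFP-positive arrays and between 8.67 and 9.92 in GFP-negative ones, well above them. Cd8a reached 6.93 in GFP-positive arrays and 6.74 in GFP-negative ones, and Itgam 6.65 in GFP-positive arrays and 7.65 in GFP-negative ones. The groups overlapped for all 5, and 0 stood at an unadjusted p under 0.05 by limma. Markers of other blood cells were not level between the groups. Of all genes, 3.33% were higher at an unadjusted p under 0.05. Of 10 macrophage markers 7 were higher at an unadjusted p under 0.05, and their summed linear intensity lay between 3200 and 7311 in GFP-positive arrays and between 691 and 1159 in GFP-negative ones, with the defining Adgre1 near the guides. Of 8 measured erythroid markers 6 were higher, with sums between 4395 and 6747 in GFP-positive arrays and between 788 and 912 in GFP-negative ones, although Hba-a1 and Alas2, a globin and a heme synthesis gene, were near background in both groups. Of 10 B and plasma cell markers 4 were higher, with sums between 5392 and 11476 in GFP-positive arrays and between 1848 and 3692 in GFP-negative ones. For T and NK cells 2 of 9 were higher, and in 4 of 9 all GFP-positive arrays lay above (5.89% of all genes). In mean 7 of these 9 were higher and 2 lower, with a median log2 difference of 0.24. Gzma, which had the smallest p of the list, read 7.43, 8.07 and 7.12 in GFP-positive against 4.04, 4.20 and 4.86 in GFP-negative replicates 1, 2 and 3. The sums of these 9 overlapped (2788 to 3920 in GFP-positive, 2995 to 3580 in GFP-negative arrays). For neutrophils 1 of 9 was higher (13381 to 31833 in GFP-positive, 12137 to 16507 in GFP-negative arrays). Of 10 endothelial and stromal markers 1 was higher, with sums between 1898 and 13302 in GFP-positive arrays and between 2929 and 3383 in GFP-negative ones. The higher one was Cxcl12, at 12.52, 9.27 and 8.33 in GFP-positive against 5.34, 5.52 and 5.38 in GFP-negative replicates 1, 2 and 3. It thus lay above in all 3 GFP-positive arrays. In mean 6 of the 10 were higher and 4 lower. The highest sum was that of GFP-positive replicate 1. Cdh5, which defines endothelium, read 9.83 in that array, against 4.91 and 4.65 in the other GFP-positive arrays and 4.50, 5.01 and 4.29 in the GFP-negative ones. Without GFP-positive replicate 1 Bcl2, Bad and Bcl2l11 had log2 differences of 0.74, 0.96 and -1.73. The part of any of these cell types in the values of the family, endothelial and stromal cells included, was not tested.

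Among the family, Bcl2 and Bad lay higher and Bcl2l11 lay lower in GFP-positive cells, with ratios of GFP-positive over GFP-negative of 1.72, 1.67 and 0.390, and none of these passed the test over all genes. For Bcl2 this holds for its brightest probe set: with the mean of its 5 probe sets the log2 difference was 0.06, and with the most variable one it was -2.02. Bcl2 is the founding survival gene, Bad a trigger that binds Bcl2 and Bcl2l1, and Bcl2l11 encodes Bim, a trigger that binds every survival member. By limma, 0 of the 9 genes passed at a Benjamini-Hochberg adjusted p under 0.05 (0% of all genes did, with a smallest adjusted p of 0.0956), and the 9 adjusted p-values lay between 0.564 and 0.992. At an unadjusted p under 0.05, 3 of the 9 stood, or 33.3%, beside 6.71% of all genes, 2 of them higher (3.33% of all genes) and 1 lower (3.38%). The count was 1 in place of 3 with the mean of each gene's probe sets, and likewise 1 without GFP-positive replicate 2, GFP-negative replicate 2 or GFP-negative replicate 3. With the most variable probe set of each gene the count stayed at 3, but with Bid in place of Bcl2l11 and with Bcl2 lower. In 4 of the 9, or 44.4%, the GFP-positive and GFP-negative arrays did not overlap, beside 11.4% of all genes, 2 with all GFP-positive arrays above (5.89%) and 2 with all below (5.51%). A positive log2 difference was found in 2 of the 9 (51.3% of all genes) and a negative one in 7 (48.7%). With so few genes these shares are coarse, and no test was made of the family as a list. The median log2 difference over the 9 genes was -0.18, beside 0.008 over all genes, and the median size of the difference without its sign was 0.20, beside 0.19.

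**Figure D1:**
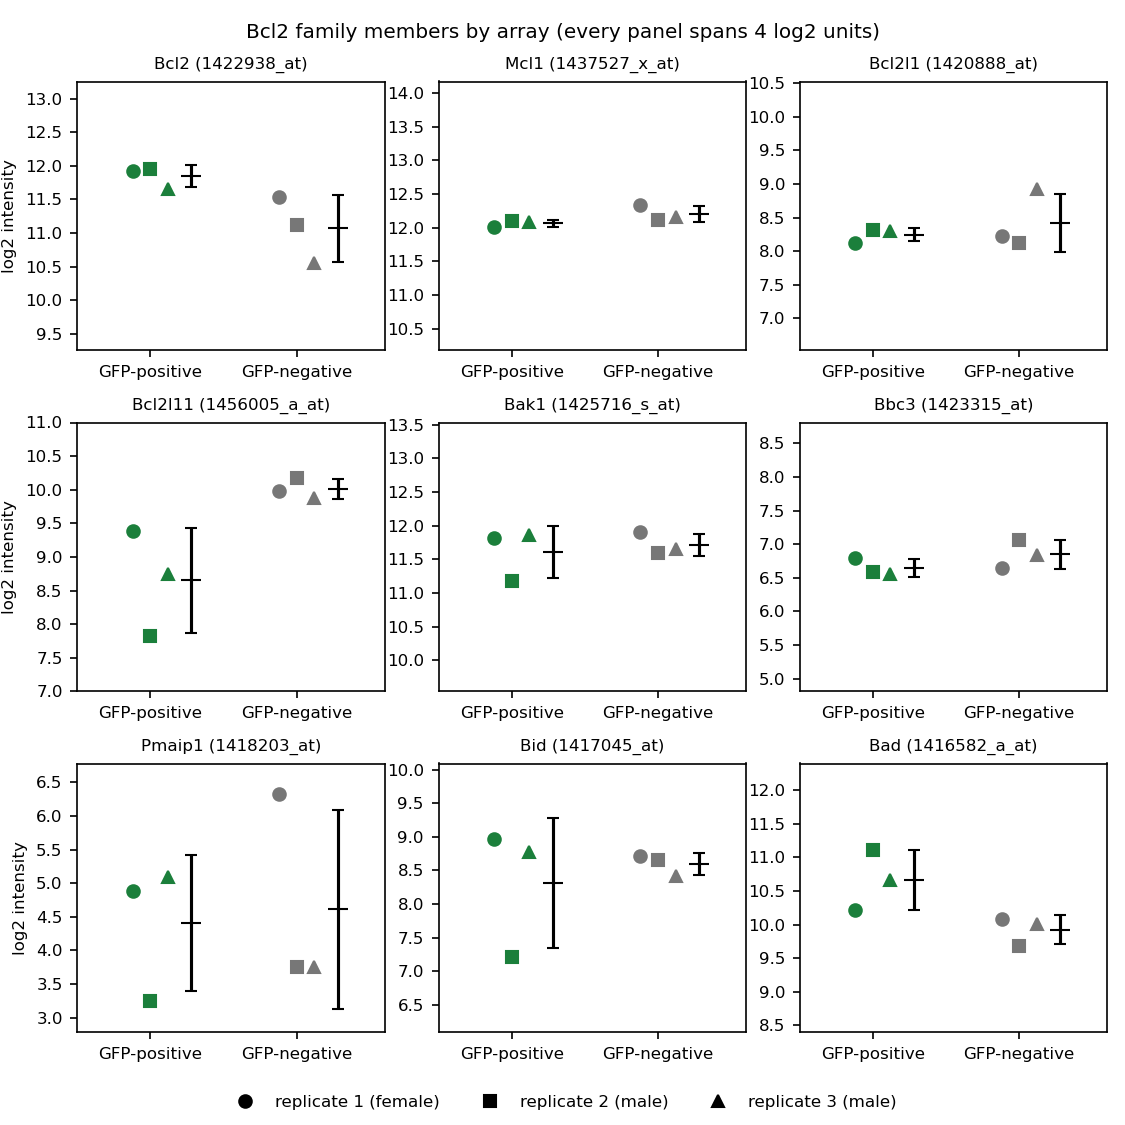
Log2 intensity (y axis, each panel spanning the same range) of the standing probe set of 9 Bcl2 family genes in GFP-positive (green, left) and GFP-negative (grey, right) arrays. Symbols mark the replicate number, and the bar is the mean ± SD of 3 arrays. The groups do not overlap for Bcl2 and Bad, where GFP-positive arrays lie above, nor for Bcl2l11 and Mcl1, where they lie below.

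Of the survival genes, Bcl2 read 11.93, 11.96 and 11.66 in GFP-positive replicates 1, 2 and 3, against 11.54, 11.12 and 10.55 in the GFP-negative ones. All 3 GFP-positive arrays lay above all 3 GFP-negative arrays, and the GFP-negative arrays were spread more widely. Bcl2 averaged 11.85 ± 0.17 in GFP-positive arrays and 11.07 ± 0.49 in GFP-negative ones (SD, n = 3 each). Its log2 difference was 0.78 ± 0.28 (SE), with an adjusted p of 0.667 by limma. An exact two-sided permutation test gave p = 0.1, the smallest value that 3 arrays against 3 allow. Left out one at a time, the arrays moved the difference between 0.53, without GFP-negative replicate 3, and 1.02, without GFP-negative replicate 1.

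The other 4 probe sets of Bcl2 did not all lie the same way. Probe sets 1457687_at and 1437122_at had log2 differences of 0.23 ± 0.28 and 0.26 ± 0.30 (SE), and their groups overlapped. Probe set 1440770_at read 6.41, 8.32 and 10.04 in GFP-positive replicates 1, 2 and 3, against 6.32, 7.42 and 7.95 in the GFP-negative ones. In both groups replicate 1 was the lowest and replicate 3 the highest, so the replicate numbers stood further apart than the groups. Probe set 1443837_x_at lay the other way, with 4.12, 4.86 and 6.06 in GFP-positive against 5.89, 6.76 and 8.44 in GFP-negative replicates 1, 2 and 3. Its groups overlapped, and GFP-positive replicates 1 and 2 lay under 5.59, the higher guide to background. The log2 difference of this probe set was -2.02 ± 0.79 (SE; limma adjusted p over all probe sets above 0.05, as for every probe set). The suffix x marks, on this platform, a probe set whose probes may also bind other transcripts. With the mean of the 5 probe sets in place of the brightest, Bcl2 had a log2 difference of 0.06 ± 0.30, and with the most variable one -2.02. The direction given for Bcl2 therefore rests on the choice of probe set.

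Mcl1, the survival protein with the shortest life, read 12.01, 12.10 and 12.08 in GFP-positive replicates 1, 2 and 3, against 12.34, 12.12 and 12.16 in the GFP-negative ones. The arrays did not overlap, but the gap between GFP-positive replicate 2 and GFP-negative replicate 2 was 0.01. Mcl1 averaged 12.06 ± 0.05 in GFP-positive arrays and 12.21 ± 0.12 in GFP-negative ones (SD, n = 3 each), a log2 difference of -0.14 ± 0.14 (SE; limma adjusted p = 0.962). It was the steadiest member: its pooled SD within groups of 0.09 stood at percentile 4.5 of all genes. All 6 Mcl1 probe sets had a negative log2 difference, between -0.45 and -0.14, and in 3 of them the groups did not overlap. The widest was 1448503_at, at 11.32, 11.24 and 11.39 in GFP-positive against 12.37, 11.51 and 11.43 in GFP-negative replicates 1, 2 and 3. Here GFP-negative replicate 1 stood above the other 5 arrays, as it did in all 6 probe sets. The 6 probe sets stand for 1 gene and are not 6 observations. The standing one, 1437527_x_at, bears the suffix x, as do 1456243_x_at and 1456381_x_at, so their probes may also bind other transcripts. Both 1437527_x_at and 1456243_x_at were among those whose groups did not overlap.

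Bcl2l1, whose long product Bcl-xL is the survival protein of maturing red cells and platelets, read 8.13, 8.31 and 8.30 in GFP-positive replicates 1, 2 and 3, against 8.22, 8.13 and 8.92 in the GFP-negative ones. The groups overlapped, and GFP-negative replicate 3 stood apart at the top. The log2 difference was -0.18 ± 0.25 (SE; limma adjusted p = 0.974), and without GFP-negative replicate 3 it was 0.07. Its other probe sets went both ways, from -0.27 ± 0.25 for 1426191_a_at to 0.80 ± 0.65 for 1420887_a_at (log2 difference ± SE). Probe set 1420887_a_at read 5.70 in GFP-positive replicate 1 but 8.06 and 7.55 in GFP-positive replicates 2 and 3, against 6.06, 6.87 and 5.98 in GFP-negative arrays.

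Bcl2l11 had the largest log2 difference among the standing probe sets of the 9 genes. It read 9.38, 7.83 and 8.74 in GFP-positive replicates 1, 2 and 3, against 9.98, 10.17 and 9.87 in the GFP-negative ones. The 3 GFP-negative arrays lay close together and all above the GFP-positive arrays, among which replicate 2 was lowest. Bcl2l11 averaged 8.65 ± 0.78 in GFP-positive arrays and 10.01 ± 0.15 in GFP-negative ones (SD, n = 3 each), a log2 difference of -1.36 ± 0.40 (SE; limma adjusted p = 0.564). The exact permutation p, two-sided, was 0.1. Without GFP-positive replicate 2 the difference was -0.95 and without GFP-positive replicate 1 it was -1.73.

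All 5 Bcl2l11 probe sets had a negative log2 difference, between -1.36 and -0.42. Probe set 1435448_at read 8.50, 7.66 and 7.78 in GFP-positive replicates 1, 2 and 3, against 8.54, 9.30 and 8.95 in the GFP-negative ones, again with no overlap, although GFP-positive replicate 1 and GFP-negative replicate 1 were nearly level. In the remaining 3 probe sets the groups overlapped. Probe set 1426334_a_at spread most, at 8.50, 5.85 and 8.65 in GFP-positive against 7.78, 9.48 and 8.14 in GFP-negative replicates 1, 2 and 3. As with the standing probe set, GFP-positive replicate 2 was the lowest array and GFP-negative replicate 2 the highest. The mean of the 5 probe sets gave a log2 difference of -0.82 ± 0.37.

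Bad, whose protein is silenced by phosphorylation when growth factors are present, read 10.22, 11.11 and 10.66 in GFP-positive replicates 1, 2 and 3, against 10.08, 9.68 and 10.01 in the GFP-negative ones. No GFP-positive array lay below a GFP-negative one, and the nearest arrays were the replicate 1 arrays of each group. Bad averaged 10.67 ± 0.44 in GFP-positive arrays and 9.92 ± 0.21 in GFP-negative ones (SD, n = 3 each), a log2 difference of 0.74 ± 0.27 (SE; limma adjusted p = 0.668). Its exact permutation p, two-sided, was 0.1. The other probe set, 1416583_at, read 9.51, 9.71 and 9.37 in GFP-positive against 9.26, 8.76 and 9.01 in GFP-negative replicates 1, 2 and 3. It did not overlap either, and its log2 difference was 0.51 ± 0.19 (SE). Bad was the only gene of the 9 in which more than 1 probe set was measured and every one of them kept the groups apart. Without GFP-positive replicate 2, the highest array, the log2 difference was 0.52.

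Bid, which caspase-8 or granzyme B cuts into its active form, gave different pictures by probe set. The standing probe set 1417045_at read 8.97, 7.21 and 8.77 in GFP-positive replicates 1, 2 and 3, against 8.71, 8.66 and 8.41 in the GFP-negative ones. GFP-positive replicate 2 alone stood low, and the other 2 GFP-positive arrays were the highest of all. The log2 difference was -0.28 ± 0.48 (SE; limma adjusted p = 0.977), and it was 0.28 without GFP-positive replicate 2. Probe set 1448560_at instead read 7.69, 7.77 and 6.70 in GFP-positive against 8.24, 8.95 and 8.72 in GFP-negative replicates 1, 2 and 3. There the groups did not overlap and the log2 difference was -1.25 ± 0.36 (SE), and replicate 3, not 2, was the lowest GFP-positive array. The third, 1447873_x_at, reached at most 5.02 in GFP-positive arrays and 5.27 in GFP-negative ones, with overlap and a log2 difference of -0.08 ± 0.42.

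Bbc3 and Pmaip1 encode Puma and Noxa, triggers known as transcriptional targets of p53, and each had 1 probe set. Bbc3 read 6.80, 6.58 and 6.56 in GFP-positive replicates 1, 2 and 3, against 6.64, 7.06 and 6.84 in the GFP-negative ones, with overlap and a log2 difference of -0.20 ± 0.17 (SE; limma adjusted p = 0.962). Pmaip1 read 4.89, 3.24 and 5.09 in GFP-positive against 6.32, 3.75 and 3.76 in GFP-negative replicates 1, 2 and 3. Its highest array was GFP-negative replicate 1, and its pooled SD within groups of 1.27 stood at percentile 97.4 of all genes. The log2 difference was -0.20 ± 0.86 (SE; limma adjusted p = 0.992), and it was 0.65 without GFP-negative replicate 1. All but 1 of the 6 Pmaip1 readings lay under 5.59, the higher guide to background, and a difference was not detectable at these levels.

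Of the effectors, Bak1 read 11.81, 11.17 and 11.86 in GFP-positive replicates 1, 2 and 3, against 11.90, 11.60 and 11.65 in the GFP-negative ones. The groups overlapped, with GFP-positive replicate 2 lowest. The log2 difference was -0.10 ± 0.23 (SE; limma adjusted p = 0.983), and without GFP-positive replicate 2 it was 0.12. The second probe set, 1418991_at, showed the same low array more widely, at 9.87 in GFP-positive replicate 2 against 11.76 and 11.06 in the other 2 GFP-positive arrays, and read 11.35, 10.96 and 10.89 in GFP-negative replicates 1, 2 and 3.

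**Figure D2:**
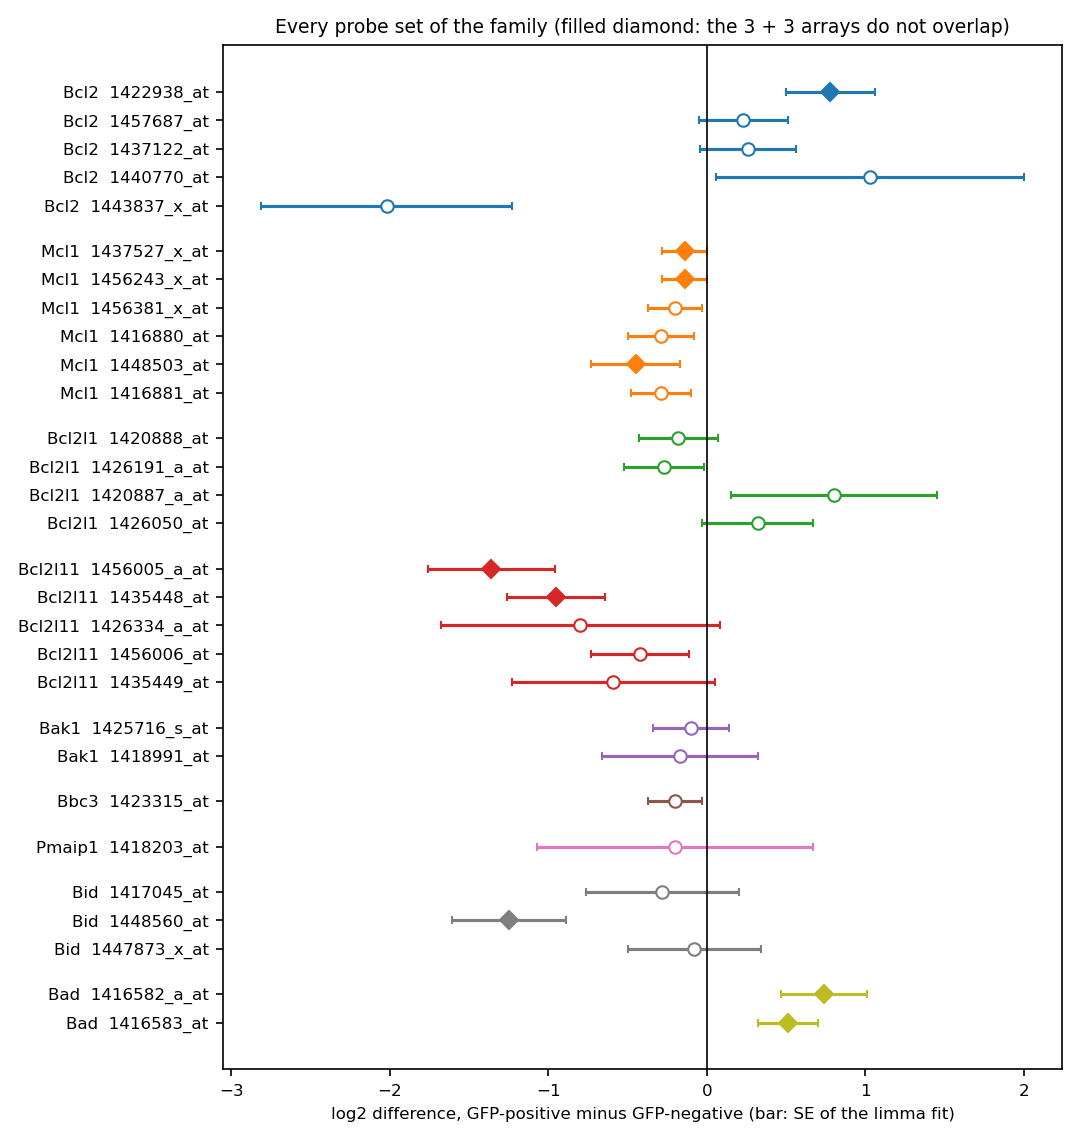
Log2 difference, GFP-positive minus GFP-negative (x axis), of all 29 probe sets of 9 Bcl2 family genes, with the SE of the limma fit as a bar. Filled diamonds mark the 9 probe sets whose arrays do not overlap. All probe sets of Mcl1, Bcl2l11, Bid and Bak1 lie left of 0, both of Bad lie right of it, and those of Bcl2 and Bcl2l1 lie on both sides.

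Taken over probe sets, 8 of the 29 had a positive and 21 a negative log2 difference. At an unadjusted p under 0.05 stood 7 of the 29, beside 6.14% of all probe sets, and 9 did not overlap, beside 11.2% of all probe sets. Since probe sets of a gene share its transcript, these counts hold fewer independent values than they name. Of all 45101 probe sets 0 passed at an adjusted p under 0.05 by limma. At an unadjusted p under 0.05 these held 1293 higher and 1474 lower ones.

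Compared within replicate numbers, 4 of the 9 genes had the same sign in all 3 pairs of arrays, beside 27% of all genes. These are the same 4 genes whose groups did not overlap. Without overlap the 3 pairs must share a sign, so this count adds nothing to that one. They were Bcl2 (log2 differences of 0.40, 0.85 and 1.11 for numbers 1, 2 and 3), Bad (0.15, 1.43 and 0.65), Bcl2l11 (-0.60, -2.34 and -1.14) and Mcl1 (-0.34, -0.01 and -0.08). For Bcl2, Bad and Bcl2l11 the female pair, number 1, showed the smallest difference, while for Mcl1 it showed the largest. Whether the difference depends on sex could not be settled, since the female side held 1 array of each group and its spread is taken from the 4 male arrays. In the 4 male arrays alone the log2 differences of Bcl2, Bad and Bcl2l11 were 0.98, 1.04 and -1.74. GFP-positive replicate 2 was the lowest of the 6 arrays in 4 of the 9 genes, Bcl2l11, Bak1, Pmaip1 and Bid, or 44.4%, beside 24.3% of all genes. It was the highest in Bcl2 and Bad, or 22.2%, beside 14.1% of all genes.

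**Figure D3:**
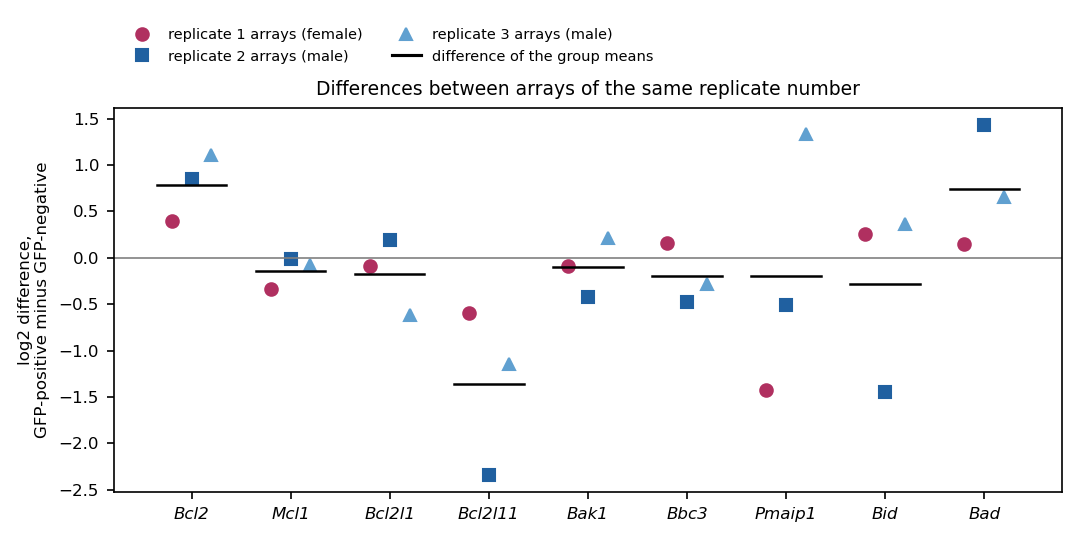
Log2 difference, GFP-positive minus GFP-negative (y axis), between arrays of the same replicate number for 9 Bcl2 family genes (x axis). Symbols mark the replicate number and black lines the difference of the group means. Bcl2 and Bad lie above 0 in all 3 numbers and Bcl2l11 below it, while replicate 2 carries the low values of Bid.

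The pattern of Bcl2 over the 6 arrays was most like that of Pf4, which encodes platelet factor 4 (Pearson r = 0.987), and of Myh7b, a myosin gene (r = 0.984), among 10915 genes above the 40th percentile of mean level. Mcl1 was most like Zfp521, a zinc finger gene (r = 0.978), and Fxr2 (r = 0.977), and Bcl2l1 most like Slc7a4 (r = 0.991) and Dio2 (r = 0.986). With 6 arrays such values are common: 136 genes had r above 0.9 with Bcl2, 59 with Mcl1 and 70 with Bcl2l1. They describe these 6 arrays, which share groups and sexes, and carry no test. Pf4 read 12.24, 12.22 and 11.98 in GFP-positive replicates 1, 2 and 3, against 10.80, 9.23 and 7.36 in the GFP-negative ones.

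Among the wider Bcl2 family 12 of 16 listed relatives were measured. In this list 1 gene was lower and 0 were higher at an unadjusted p under 0.05, beside 3.38% and 3.33% of all genes. This one was Bnip3, a mitochondrial protein with a weak BH3-like motif that acts in mitophagy. It read 8.55, 9.23 and 8.99 in GFP-positive replicates 1, 2 and 3, against 9.56, 9.73 and 10.14 in the GFP-negative ones, with no overlap and a log2 difference of -0.89 ± 0.25 (SE; limma adjusted p = 0.545). Next by p stood Bcl2l12 at -0.50 ± 0.26 and Mtch2, the mitochondrial docking partner of cleaved Bid, at 0.87 ± 0.46. Their next brightest probe sets were at -0.01 ± 0.40 (1453718_at of Bcl2l12) and -0.31 ± 0.48 (1448654_at of Mtch2). The remaining probe sets of Mtch2 went both ways. Bcl2l2, a further survival gene, had a log2 difference of 0.51 ± 0.49 in its brightest probe set but of -1.04 ± 0.27 in probe set 1423572_at, where the groups did not overlap. The effector-like Bok had a log2 difference of -0.08 ± 0.42 and the trigger Bmf of -0.15 ± 0.19, both with overlapping arrays. The triggers Bik and Hrk had 0.27 ± 0.25 and 0.19 ± 0.15. The list median was -0.09, and for Bcl2a1a, Bcl2a1b, Bcl2a1d and Bnip3l no value was used here.

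Of 8 factors known to drive or restrain transcription of Bcl2l11 and Bbc3, all measured, 0 had a positive and 8 a negative log2 difference (48.7% of all genes had a negative one). These lay between -0.87 and -0.01, with a median of -0.21. Foxo3, which turns on Bim and Puma when growth signals fall, read 12.12, 11.99 and 11.55 in GFP-positive replicates 1, 2 and 3, against 12.50, 12.76 and 12.60 in the GFP-negative ones. Its groups did not overlap, and its log2 difference was -0.74 ± 0.20 (SE; limma adjusted p = 0.528). Foxo4 had a log2 difference of -0.87 ± 0.42 and Myb, a progenitor factor, -0.21 ± 0.14, both with all GFP-positive arrays below. So 3 of the 8 did not overlap, beside 11.4% of all genes in either direction and 5.51% with all below. Foxo3 alone of the 8 stood at an unadjusted p under 0.05, beside 6.71% of all genes. This list was chosen with earlier results of these data known, Foxo3 among them, so its count is not independent evidence of a direction. It pools factors that drive and factors that restrain, so a shared sign has no single meaning for Bcl2l11 or Bbc3. A part of Foxo3 in the values of Bcl2l11 was not tested.

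Among kinases and scaffolds that keep Bad or Bim inactive, 10 of 15 listed genes were measured. At an unadjusted p under 0.05 there was 1 lower gene (3.38% of all genes) and no higher one (3.33%). Pim2, a survival kinase that phosphorylates Bad, read 9.11, 7.77 and 8.18 in GFP-positive replicates 1, 2 and 3, against 9.48, 8.94 and 9.43 in the GFP-negative ones, with 1 GFP-positive array inside the GFP-negative range. Its log2 difference was -0.93 ± 0.38 (SE; limma adjusted p = 0.737). Pim1, its relative, was at -0.74 ± 0.32, with all GFP-positive arrays below, and Sfn, a 14-3-3 protein, at 0.34 ± 0.17, with all above.

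Downstream, 11 of 13 listed caspase and apoptosome genes were measured and 0 stood at an unadjusted p under 0.05 in either direction. The smallest p-values belonged to Htra2, a mitochondrial protease, at 0.71 ± 0.33, to the executioner Casp6 at -0.72 ± 0.34 and to Dffa, inhibitor of the apoptotic nuclease, at -0.80 ± 0.44 (log2 difference ± SE). Of 8 measured inhibitors of apoptosis 2 stood at an unadjusted p under 0.05 (6.71% of all genes), 1 in each direction. The higher one was Birc5 (survivin), which also serves in cell division, with readings of 11.47, 11.03 and 11.48 in GFP-positive arrays, against 10.71, 8.89 and 8.58 in GFP-negative arrays (replicates 1, 2 and 3). Its log2 difference was 1.93 ± 0.57 (SE; limma adjusted p = 0.574), with no overlap. The lower one was Birc3, an NF-kappa-B target, at -0.72 ± 0.27 (SE; limma adjusted p = 0.698), and Birc6 was at -0.30 ± 0.19.

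Upstream of Bid, 10 of 11 listed genes of the death receptor route were measured, and 0 stood at an unadjusted p under 0.05. Gzmb, a protease of cytotoxic cells that cuts Bid, read 5.50, 9.05 and 8.72 in GFP-positive replicates 1, 2 and 3, against 5.35, 5.57 and 5.57 in the GFP-negative ones. Both male GFP-positive arrays were high, and the female one was within the GFP-negative range. Fas read at most 3.99 in any array, below both guides to background, and Tnfrsf10b had a log2 difference of -0.63 ± 0.52. In the p53 network 15 of 16 listed genes were measured and 0 stood at an unadjusted p under 0.05, led by Trp53inp1 at -0.55 ± 0.32, Zmat3 at 0.50 ± 0.30 and Trp53bp2 at -0.37 ± 0.30. Of 8 measured enzymes of Mcl1 turnover likewise 0 did, and Btrc, part of a ubiquitin ligase, came first at -1.02 ± 0.45, before Gsk3b at -0.35 ± 0.19 and Cul5 at 0.28 ± 0.53.

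**Figure D4:**
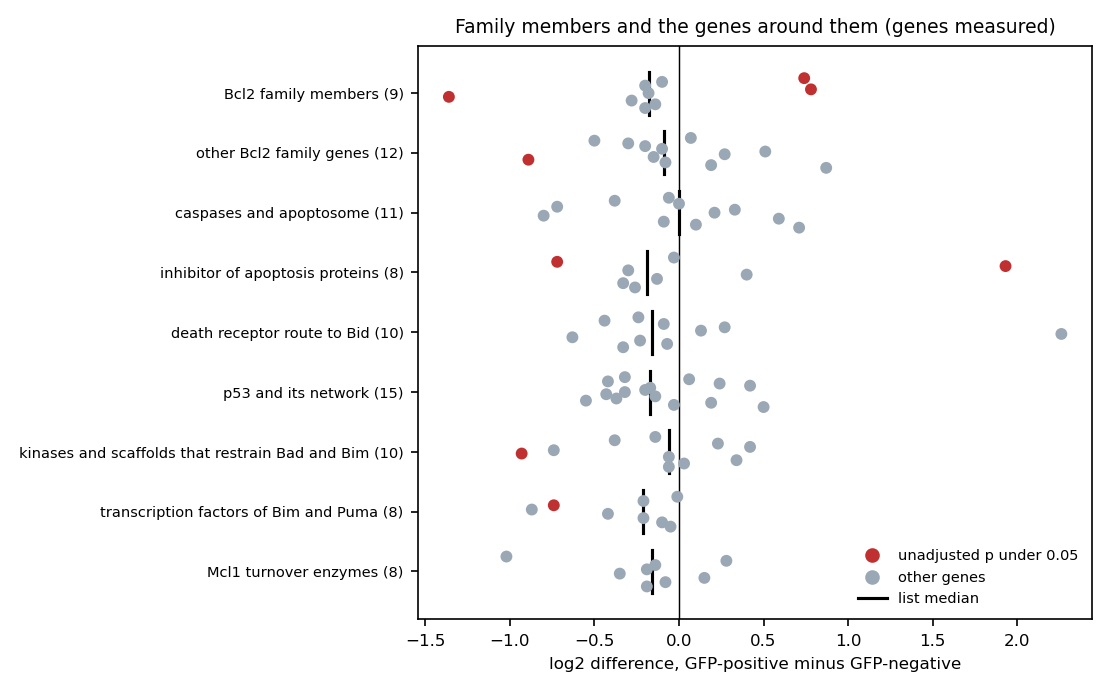
Log2 difference, GFP-positive minus GFP-negative (x axis), of the genes of 9 lists, with the number measured in brackets. Red points stood at an unadjusted p under 0.05, and black lines are list medians. Bcl2l11 at -1.36 is the lowest point of all lists, and Gzmb at 2.26 and Birc5 at 1.93 are the highest.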

How the data were processed

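Expression was measured on 6 Affymetrix arrays of sorted marrow cells, from 5 ng of total RNA per sample, amplified and biotin-labelled, per the labels' protocols. The authors deposited 1 linear intensity per probe set and array. The submitters' processing notes name RMA without settings. RMA compresses differences near background, and its quantile step removes shifts common to most genes. Array medians lay between 74 and 78.5 (linear) and the lowest value was 4.12, so log2 was taken with no pseudocount. The number of arrays limits the precision.

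Probe sets were named from the platform annotation: 34958 had 1 symbol, 932 several and 9211 were not listed, and the last 2 kinds stayed out of the gene test. For 9012 genes with several probe sets the brightest stood for the gene. The 18194 genes were fitted with limma 3.58.1 in R 4.3.3 (lmFit, eBayes, no covariate, Benjamini-Hochberg, threshold 0.05), and all 45101 probe sets in a second fit. Exact permutation tests were two-sided. Named genes were the members, their relatives, Hes1, the 3 genes of smallest p in each list, the 2 genes most like each survival gene, and up to 2 markers a cell type. Probe set 1423572_at of Bcl2l2 was named after its value was seen. The members and lists were chosen with earlier results of these data known. Whether the arrays hold separate animals is not stated. The spread behind each p-value is thus that between these samples, and may be technical.

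On simulated data for this comparison (18194 genes, 200 changed, 20 runs) the fit recovered 15.5% of genes with a log2 difference of 1, 55.2% at 2 and 86% at 4. Same-numbered arrays correlated at 0.124, 0.05 and 0.092 in their deviations from group means, not all above 0.1, so they were not treated as pairs. Alternatives were other ways to choose or average probe sets, a filter on dim genes, 16 added before log2, other variance priors, array weights, renewed normalisation, a block for the replicate number, a term for sex, the male arrays only, and leaving out each array. Promoter sequences came from RefSeq (GRCm38.p6), matched by symbol. Python 3.11.15 and matplotlib 3.10.9 drew the figures.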

Additional observations from a re-analysis of the deposited data

How the results depend on the processing

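Of the 18 alternatives, 5 leave a gene's log2 difference as it is by construction (the filter on dim genes, both variance priors, the block and the term for sex). Among those that gave another value, the sign held in 13 for Mcl1 and for Bcl2l11, in 12 for Bad and in 11 for Bbc3, which has 1 probe set. No member passed at an adjusted p under 0.05 under any of the 18 (lowest 0.364, for Bcl2l11). With other probe sets, Bcl2 was at -2.02 with its most variable probe set, and Bcl2l1 at 0.17 with the mean of its probe sets and at 0.80 with the most variable one. Pmaip1 turned to 0.41 in the male arrays. With each array left out in turn, Bcl2l1 lay between -0.32 and 0.074, Bak1 between -0.22 and 0.12, Bid between -0.60 and 0.28 and Pmaip1 between -0.63 and 0.65. The sign turned without GFP-positive replicate 2 for Bak1, Bid and Pmaip1 (0.38), without GFP-negative replicate 3 for Bcl2l1, and without GFP-negative replicate 1 for Pmaip1. Pmaip1 fell out of the test above the 40th percentile of mean level, since it was dimmer. Members at an unadjusted p under 0.05 numbered 3, but 1 (Bad) with the mean of each gene's probe sets. With the most variable probe set the count was also 3, but these were Bad, Bid at -1.25 and Bcl2 at -2.02. Bcl2l11 was then at -0.80 ± 0.88 (SE). When an array was left out the count lay between 1 and 3: 1 (Bcl2l11) without GFP-positive replicate 2, GFP-negative replicate 2 or GFP-negative replicate 3. Genes passing over the whole table numbered 0, but 1 (Ermap) with dim genes left out, where fewer genes were tested, and between 0 and 5 when an array was left out, the 5 being Ermap, Jchain, Pou2af1 and 2 immunoglobulin kappa entries without GFP-positive replicate 3. The cause of the other shifts was not tested. With the replicate number as a block, which the design does not establish, the log2 differences (0.78, -1.36 and 0.74 for Bcl2, Bcl2l11 and Bad) cannot move and only the errors do: 2 members (Bcl2 and Bcl2l11) stood at an unadjusted p under 0.05 and 1390 genes did, compared with 1221 when no block was used. Each array's deviations correlated best with those of its own number, which is a hint from the data. What limits these values is the spread of 3 arrays a group and, for Pmaip1 and the dimmest probe sets, signal near background.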
